A study of Mus musculus with 13 samples.

Results

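The 8 genes described here encode interleukin-1 (IL-1) family ligands and receptors: Il1a, Il1b, Il1f9, Il18, Il1rn, Il1r1, Il1r2 and Il1rap. They were taken by gene symbol from the 55421 genes of the deposited RNA-seq tables, and all 8 were present. The data are 10 bulk libraries of hematopoietic stem and progenitor cells (HSPCs) from mouse bone marrow. They fall into 4 genotypes: Setd2 knockout with Srsf2 mutated (called double mutant here, n = 3), Srsf2 mutated (n = 3), Setd2 knockout (n = 2) and wild type (n = 2). Setd2 is a histone methyltransferase of transcribed genes, and Srsf2 is a splicing factor mutated in myelodysplastic syndrome. For the 3 single-cell samples of the series, which were not analysed here, the labels give the alleles Setd2 fl/fl and Srsf2 P95H/+, and Mx1-Cre in all groups, wild type included. Mx1-Cre is a recombinase switched on by pIpC in blood cells and in other interferon-responsive cells. The same labels give a transplant, 4 weeks after induction, and lineage-negative c-Kit-positive cells. None of this is stated for the bulk libraries, and neither are strain, sex, age, library strandedness, or whether replicates came from separate mice. The p-values therefore measure the spread between these libraries, which may be technical.

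IL-1 alpha and IL-1 beta bind the receptor IL1R1, which then pairs with the accessory chain IL1RAP and signals through MYD88 and IRAK kinases to NF-kB and MAP kinases. The antagonist IL1RN occupies IL1R1 without recruiting the accessory chain, and IL1R2 is a decoy that binds IL-1 but lacks the signaling domain. IL-36 gamma, the product of Il1f9, signals through IL1RL2 with the same accessory chain, and IL-18 through IL18R1 and IL18RAP. IL-1 beta and IL-18 are made as precursors that caspase-1 cuts, and neutrophil proteases can cut several family members, so RNA is not a measure of the active protein. In marrow, IL-1 is known to push stem and progenitor cells towards myeloid output.

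Library totals ran from 32117387 to 50445434 counts, and levels are CPM, counts scaled to a common library total. Setd2 stood at 130 ± 0.87 CPM in double mutant, 197 ± 34.8 in Srsf2 mutated, 222 ± 12.9 in the libraries labelled Setd2 knockout and 152 ± 9.63 in wild type (SD). The labelled Setd2 knockout exceeded wild type by 0.55 ± 0.121 (log2 scale, SE; adjusted p = 0.00204), which goes against the label, and directions drawn from these libraries rest on it. A count over the whole gene does not single out a deleted part. Xist, which female cells transcribe from the inactive X chromosome, averaged 7.41, 1.78 and 0.598 CPM in double mutant, Srsf2 mutated and labelled Setd2 knockout libraries, against 486 CPM in wild type. A difference in sex of the mice cannot be told apart from genotype in any comparison with wild type. Kit, the stem cell factor receptor that marks HSPCs, was present in every group, at 163 ± 4.04 CPM in double mutant, 206 ± 12.7 in Srsf2 mutated, 445 ± 14.6 in labelled Setd2 knockout and 422 ± 33.7 in wild type. Markers of late neutrophils and red cells were also detected in every group. Srsf2 mutated replicate 3 scored -75.5 on the second principal component, where its fellow replicates scored -36.9 and -42.5.

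The IL-1 family genes split into a group that was highest in double mutant (Il1b, Il1f9, Il1r2, Il1rn and, at a low level, Il1a) and a pair of receptor genes that was highest in wild type (Il1r1 and Il1rap). Double mutant exceeded Srsf2 mutated by 2.11 for Il1b, 3.65 for Il1f9, 1.86 for Il1rn and 2.62 for Il1r2 (log2 scale). In the comparison of labelled Setd2 knockout with wild type, Il1f9, Il1rn and Il1r2 were lower instead, and Il1b did not pass the test. Il18 passed the test in 1 of 6 pairwise comparisons. In bulk RNA, fewer cells of a type and less RNA per cell cannot be told apart.

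**Figure D1:**
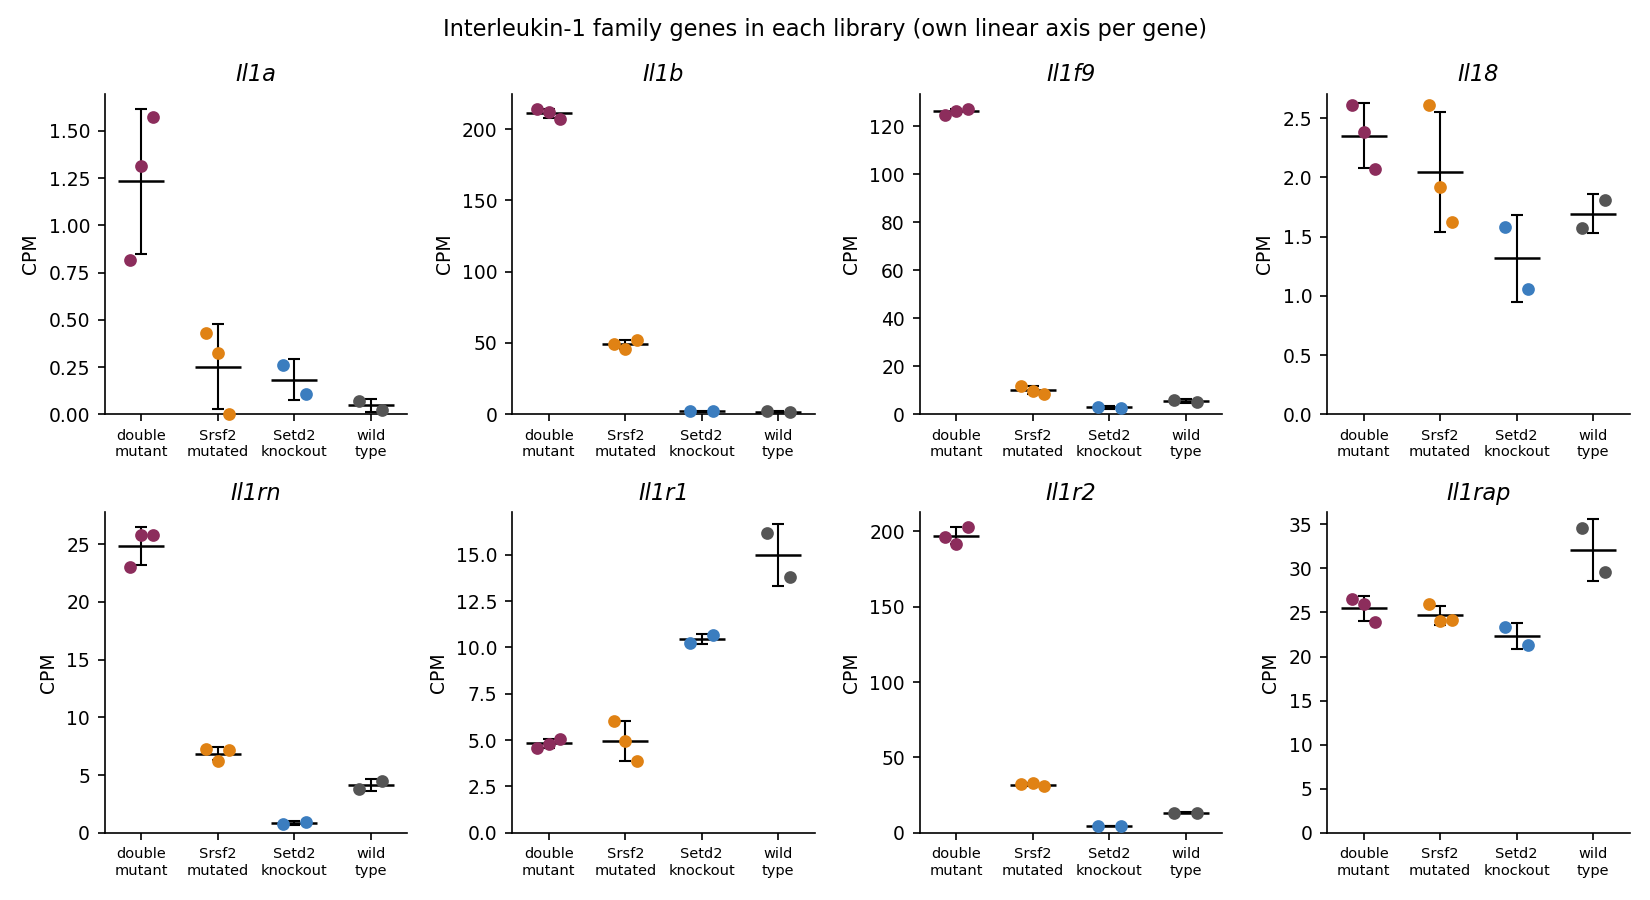
CPM of each of the 8 genes (linear axis from 0, own scale per gene) in every library of the 4 genotypes; points are libraries, long bars the mean and error bars the SD. Il1b, Il1f9, Il1rn and Il1r2 are highest in all 3 double mutant libraries, while Il1r1 and Il1rap are highest in the wild type libraries.

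Among the agonist ligands, Il1b (ENSMUSG00000027398; GRCm38 chromosome 2, 129364570 to 129371139, minus strand), the gene of IL-1 beta, had the highest level in double mutant and in Srsf2 mutated libraries. It stood at 214, 212 and 207 CPM in the double mutant libraries, and at 49.5, 45.4 and 52.2 CPM in the Srsf2 mutated libraries. The libraries labelled Setd2 knockout had 1.94 and 2.26 CPM, and the wild type libraries 2.16 and 1.65 CPM. The double mutant, the Srsf2 mutated and the remaining libraries thus formed 3 levels without overlap, while the labelled Setd2 knockout and wild type values overlapped. The double mutant level of Il1b was 4.30-fold that of Srsf2 mutated (log2 fold change 2.11 ± 0.0786 SE, adjusted p = 9.14e-12, edgeR quasi-likelihood test with Benjamini-Hochberg adjustment over 19289 genes). Srsf2 mutated exceeded wild type by 4.68 ± 0.123 on the log2 scale (adjusted p = 7.21e-14). Labelled Setd2 knockout differed from wild type by 0.14 ± 0.158 (adjusted p = 0.505). An antisense gene, Il1bos, overlaps Il1b and had 49 to 122 counts in double mutant, 20 to 42 in Srsf2 mutated, 17 to 34 in labelled Setd2 knockout and 2 to 9 in wild type libraries. Without strand information its reads cannot be told apart from those of Il1b, which had 6562 to 10026 counts in double mutant and 70 to 92 in wild type libraries.

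Il1f9 (ENSMUSG00000044103; chromosome 2, 24186476 to 24193568, plus strand), the gene of IL-36 gamma, differed most between double mutant and Srsf2 mutated libraries. It had 125, 126 and 127 CPM in the double mutant libraries, against 11.7, 9.85 and 8.50 CPM in the Srsf2 mutated libraries. The libraries labelled Setd2 knockout had 3.18 and 2.50 CPM, and the wild type libraries 6.05 and 4.96 CPM. No 2 groups overlapped, and the lowest double mutant library was over 10 times the highest library of any other group. The double mutant level was 12.6-fold that of Srsf2 mutated (3.65 ± 0.114, adjusted p = 1.49e-12). Srsf2 mutated was higher than wild type by 0.86 ± 0.136 (adjusted p = 5.63e-05), and labelled Setd2 knockout lower than wild type by 0.96 (-0.96 ± 0.164, adjusted p = 0.000278). Where Il1b moved mostly with the Srsf2 mutation, Il1f9 was high in the double mutant libraries and under 12 CPM in all others.

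The start-site windows of Il1f9 and Il1b are shown because these genes carry the ligand result, and those of Il1rn and Il1r2 because the antagonist and the decoy rose beside them. Each line gives the 250 bases before a RefSeq start site on GRCm38.p6, on the gene's own strand. The windows are Il1f9 at chr2:24186226-24186475 (plus strand), Il1b at chr2:129371140-129371389 (minus strand), the first of 3 Il1rn starts at chr2:24336610-24336859 (plus strand) and Il1r2 at chr1:40085843-40086092 (plus strand). Capitals mark a match, on either strand, to the PU.1 core GAGGAA, the C/EBP motif TTNNGNAA, the AP-1 motif TGANTCA or the NF-kB motif.
Il1f9: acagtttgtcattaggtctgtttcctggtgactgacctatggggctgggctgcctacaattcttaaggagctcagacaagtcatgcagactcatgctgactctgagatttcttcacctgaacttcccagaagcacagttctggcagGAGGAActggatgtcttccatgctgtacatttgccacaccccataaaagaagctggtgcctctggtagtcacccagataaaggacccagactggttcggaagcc
Il1b: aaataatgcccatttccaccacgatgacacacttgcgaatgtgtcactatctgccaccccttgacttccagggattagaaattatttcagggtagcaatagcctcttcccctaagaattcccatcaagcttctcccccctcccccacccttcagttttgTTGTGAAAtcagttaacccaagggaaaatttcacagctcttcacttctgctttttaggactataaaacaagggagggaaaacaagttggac
Il1rn: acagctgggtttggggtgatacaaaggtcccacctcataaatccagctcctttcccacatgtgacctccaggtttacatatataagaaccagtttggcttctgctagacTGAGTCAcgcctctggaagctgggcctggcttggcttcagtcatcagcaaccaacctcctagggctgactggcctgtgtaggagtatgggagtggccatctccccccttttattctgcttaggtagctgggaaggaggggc
Il1r2: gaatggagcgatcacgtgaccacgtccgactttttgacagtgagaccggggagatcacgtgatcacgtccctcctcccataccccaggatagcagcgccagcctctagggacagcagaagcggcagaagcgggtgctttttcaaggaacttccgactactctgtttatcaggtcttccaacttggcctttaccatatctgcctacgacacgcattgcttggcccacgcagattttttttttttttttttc
In these 4 windows, the Il1f9 match is to the PU.1 core at 104 to 99 bases before the start, the Il1b match to C/EBP at 91 to 84 bases, and the Il1rn match to AP-1 at 141 to 135 bases. The Il1r2 window held no match. Of 32851 mouse promoter windows of the same length, 23.3% held the PU.1 core, 36.8% the C/EBP motif, 6.75% the AP-1 motif and 3.9% the NF-kB motif. The 4 windows shown shared none of these motifs. Both other Il1rn windows held C/EBP matches, the motif found in the Il1b window. Of the 11 start-site windows that RefSeq lists for the 8 genes, 1 held an NF-kB match, the second start of Il1r1, where it overlaps a C/EBP match. The Il1a window held PU.1, C/EBP and AP-1 matches, the first of which lies inside the second. The RefSeq start of Il1r2 lies inside the gene's annotated span, which begins at 40074079, so another start of that gene is not covered.

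Il1a (ENSMUSG00000027399; chromosome 2, 129299610 to 129309972, minus strand), the gene of IL-1 alpha, was scarce everywhere. Its counts were 25, 60 and 76 in double mutant and 19, 16 and 0 in Srsf2 mutated libraries. They were 12 and 5 in labelled Setd2 knockout and 3 and 1 in wild type libraries. A count of 0 in Srsf2 mutated replicate 3 allows a level of up to 0.0759 CPM (3 counts, counting error only), below the 0.431 and 0.323 CPM of the other Srsf2 mutated libraries. Double mutant libraries, at 0.815, 1.31 and 1.57 CPM, lay above all others. Double mutant exceeded Srsf2 mutated in Il1a (2.27 ± 0.754, adjusted p = 0.0291), but that call was lost without double mutant replicate 2 (adjusted p = 0.0831) or replicate 3 (0.121). Srsf2 mutated against wild type gave 2.37 with an adjusted p of 0.0855, which became 0.00546 without Srsf2 mutated replicate 3. Gm14023 overlaps Il1a on the other strand and had 4 to 17, 0 to 15, 6 to 7 and 3 to 10 counts in double mutant, Srsf2 mutated, labelled Setd2 knockout and wild type libraries, so reads of the pair are uncertain where Il1a is scarce.

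Il18 (ENSMUSG00000039217; chromosome 9, 50554827 to 50581840, plus strand), the gene of IL-18, did not follow the other ligands. It had 2.61, 2.38 and 2.07 CPM in double mutant, 2.61, 1.92 and 1.62 in Srsf2 mutated, 1.58 and 1.06 in labelled Setd2 knockout and 1.58 and 1.81 in wild type libraries. Neighbouring groups overlapped throughout. The double mutant exceeded the labelled Setd2 knockout by 0.83 ± 0.302 (adjusted p = 0.0299), a call lost with no count filter (0.0519) and without double mutant replicate 1 (0.0757), double mutant replicate 2 (0.0593) or Setd2 knockout replicate 2 (0.317). In the other 5 pairwise comparisons Il18 did not pass the test. Bco2, which overlaps Il18 on the other strand, had 8 to 35, 13 to 46, 28 to 38 and 33 to 52 counts in the 4 groups in the order above, against 50 to 115 counts of Il18. Il18 lies on the same chromosome as Setd2, 60.0 Mb away.

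Il1rn (ENSMUSG00000026981; chromosome 2, 24336853 to 24351494, plus strand), the gene of the receptor antagonist, had 23.0, 25.8 and 25.8 CPM in the double mutant libraries. Srsf2 mutated libraries had 7.26, 6.17 and 7.16 CPM, labelled Setd2 knockout libraries 0.756 and 0.952 CPM, and wild type libraries 3.79 and 4.52 CPM. The 4 groups did not overlap, with labelled Setd2 knockout lowest and double mutant highest. Double mutant exceeded Srsf2 mutated by 1.86 ± 0.121 (adjusted p = 5.79e-09). Labelled Setd2 knockout lay below wild type by more than that, at -2.28 ± 0.192 (adjusted p = 2.47e-07). Srsf2 mutated exceeded wild type by 0.72 ± 0.144 (adjusted p = 0.00051).

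Il1r2 (ENSMUSG00000026073; chromosome 1, 40074079 to 40125231, plus strand), the gene of the decoy receptor, followed the same order. It had 196, 192 and 203 CPM in double mutant and 32.3, 32.7 and 31.1 CPM in Srsf2 mutated libraries. Labelled Setd2 knockout libraries had 4.73 and 4.65 CPM, against 13.4 and 13.1 CPM in wild type. The spread within each group was small beside the gaps between groups. The difference was 2.62 ± 0.0654 for double mutant against Srsf2 mutated (adjusted p = 3.34e-13), 1.27 ± 0.0766 for Srsf2 mutated against wild type (1.47e-09) and -1.5 ± 0.0917 for labelled Setd2 knockout against wild type (8.25e-09). Gm37347, a same-strand entry inside Il1r2, had 258 to 419 counts in double mutant, 19 to 66 in Srsf2 mutated, 13 to 17 in labelled Setd2 knockout and 7 to 8 in wild type libraries. The antisense Gm16894 had 63 to 96, 3 to 21, 7 to 14 and 4 to 21 counts in the same 4 groups. How reads shared with these entries were assigned is not given in the sources used here.

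The signaling receptor gene Il1r1 (ENSMUSG00000026072; chromosome 1, 40225080 to 40317257, plus strand) moved the other way. It had 4.60, 4.81 and 5.09 CPM in double mutant and 6.05, 4.94 and 3.90 CPM in Srsf2 mutated libraries, which overlapped. Labelled Setd2 knockout libraries had 10.3 and 10.7 CPM and wild type libraries 16.2 and 13.8 CPM. Both groups with the Srsf2 mutation lay below both groups without it. Srsf2 mutated was lower than wild type by 1.59 on the log2 scale (-1.59 ± 0.162, adjusted p = 5.62e-07), and double mutant differed from Srsf2 mutated by -0.04 ± 0.154 (adjusted p = 0.879). The lower level in labelled Setd2 knockout than in wild type (-0.52 ± 0.175, adjusted p = 0.0284) did not hold under upper-quartile scaling (adjusted p = 0.0671), a stricter count filter (0.0503), or without Setd2 knockout replicate 1 (0.161), Setd2 knockout replicate 2 (0.104) or wild type replicate 1 (0.196).

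Il1rap (ENSMUSG00000022514; chromosome 16, 26581704 to 26730117, plus strand), the shared accessory chain, varied least. It had 26.5, 26.02 and 23.9 CPM in double mutant, 25.9, 24.0 and 24.2 in Srsf2 mutated, 23.4 and 21.3 in labelled Setd2 knockout, and 34.6 and 29.6 CPM in wild type libraries. The wild type libraries lay above all others. It was lower than wild type in labelled Setd2 knockout (-0.53 ± 0.107, adjusted p = 0.00114) and in Srsf2 mutated (-0.38 ± 0.097, 0.00354). The last call was lost without wild type replicate 1 (0.075). In double mutant it differed from wild type by -0.34 (adjusted p = 0.00691), a call also lost without wild type replicate 1 (0.118), and from Srsf2 mutated by 0.04 ± 0.0881 (0.756), or by -0.01 under upper-quartile scaling.

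Counted over the 8 genes, double mutant against Srsf2 mutated gave 5 higher and 0 lower, beside 17.8% of all tested genes higher and 15.9% lower (33.8% called in either direction). In labelled Setd2 knockout against wild type, 0 were higher and 5 lower, against 18.7% and 19.9% of all genes (38.6% in all). Of all calls in that comparison 48.4% were higher, or 59.5% under upper-quartile scaling. The 3 that did not pass were Il1a, Il1b and Il18. In Srsf2 mutated against wild type, 4 were higher and 2 lower, against 28.5% and 27.8% (56.3% in all). Double mutant against wild type gave 5 higher and 2 lower (33.5% and 29.5% of all genes, 63% in all), and double mutant against labelled Setd2 knockout 6 higher and 1 lower (26% and 25.8%, 51.8% in all). Srsf2 mutated against labelled Setd2 knockout gave 4 higher and 1 lower (23.1% and 23.2%, 46.3% in all). Double mutant and labelled Setd2 knockout differ by the Srsf2 mutation in their labels, and both were low in Xist. Between them the log2 fold change was 6.65 for Il1b, 5.47 for Il1f9, 5.39 for Il1r2 and 4.86 for Il1rn. It was 2.75 for Il1a, 0.83 for Il18 and -1.11 for Il1r1, and Il1rap did not pass. The median log2 fold change of the 8 genes was 1.98 for double mutant against Srsf2 mutated and -0.52 for labelled Setd2 knockout against wild type, beside 0.00 and 0.04 over all genes. Il1a passed the count filter with its highest counts in the double mutant libraries.

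The next question was whether the groups that differ by the Setd2 knockout label differed in another way when Srsf2 was mutated, tested as an interaction: double mutant minus Srsf2 mutated, less labelled Setd2 knockout minus wild type. Of the 8 genes, 5 were called, all with a positive sign, against 16.7% of all genes positive and 15.2% negative (31.9% called). Of all calls in the interaction, 52.4% were positive, or 37.6% under upper-quartile scaling, which left the sign and the call of these genes unchanged. Il1f9 had the largest interaction, 4.61 ± 0.198 (adjusted p = 2.48e-10), followed by Il1rn at 4.14 ± 0.225 (2.54e-09) and Il1r2 at 4.12 ± 0.112 (1.89e-12). These 3 genes were higher in double mutant than in Srsf2 mutated and lower in labelled Setd2 knockout than in wild type, where the level of Setd2 itself goes against the label. The interaction takes in wild type, so a difference in sex of the mice cannot be told apart from genotype in it either. Il1b had an interaction of 1.96 ± 0.178 (4.63e-07), and its change without the Srsf2 mutation did not pass the test. Il1rap had a small one, 0.57 ± 0.139 (0.00499), which was lost without Setd2 knockout replicate 2 (0.0613). Il1r1 (0.48, 0.133), Il18 (0.56, 0.342) and Il1a (0.38, 0.899) did not pass.

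**Figure D2:**
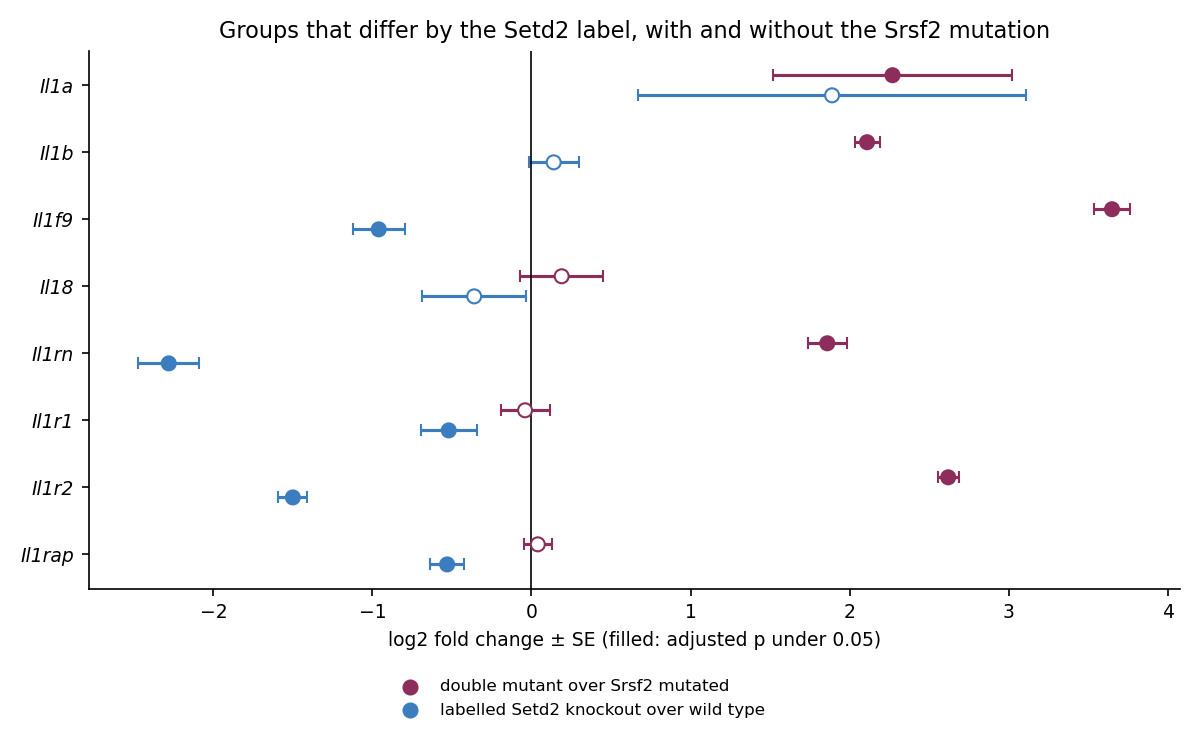
log2 fold change ± SE of the 8 genes between groups that differ by the Setd2 knockout label, for double mutant over Srsf2 mutated (upper, purple) and labelled Setd2 knockout over wild type (lower, blue); filled points passed an adjusted p of 0.05. Il1f9, Il1rn and Il1r2 lie at 3.65, 1.86 and 2.62 with the Srsf2 mutation and at -0.96, -2.28 and -1.5 without it.

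The size of these interactions can be read as CPM. If the 2 single differences from wild type simply multiplied, double mutant libraries would hold 5.16 CPM of Il1f9, 1.41 of Il1rn, 11.3 of Il1r2 and 54.2 of Il1b. The observed means were 126, 24.9, 197 and 211 CPM, or 24.45, 17.6, 17.4 and 3.90 times that. For Il1r1, Il18 and Il1rap the observed level was 1.40, 1.48 and 1.48 times the product. The product also rests on wild type, with the same limit from sex.

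Levels between genes are compared per gene length, as the deposited FPKM. In double mutant libraries Il1b stood highest at 106 ± 1.58 FPKM, followed by Il1r2 at 99.0 ± 2.71 and Il1f9 at 73.4 ± 0.905, while the other 5 genes had means of 0.599 to 4.31 FPKM (SD, n = 3). In wild type the order was different: Il1r2 led at 6.51 ± 0.155 FPKM, Il1f9 had 3.13 ± 0.451, Il1rap 2.65 ± 0.304, Il1r1 2.21 ± 0.259, Il18 1.54 ± 0.144, Il1b 0.937 ± 0.185, Il1rn 0.703 ± 0.0838 and Il1a 0.0224 ± 0.0159 FPKM (n = 2). Il1b was thus among the lowest of the family in wild type and the highest in double mutant.

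The mix of agonist ligands differed between groups on this scale. Of the summed FPKM of Il1b, Il1f9, Il18 and Il1a, Il1b made up 58.2% in double mutant, 75.9% in Srsf2 mutated, 26.8% in labelled Setd2 knockout and 16.6% in wild type libraries. Il1f9 made up 40.3%, 17.9%, 40.9% and 55.5% in the same order of groups. Il18 made up 1.2% in double mutant and 5.84% in Srsf2 mutated, against 30.2% in labelled Setd2 knockout and 27.6% in wild type, while its own mean level was 2.19, 2.04, 1.39 and 1.54 FPKM in the 4 groups. The depth behind the low ligands is small: Il18 had 50 to 115 counts per library.

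**Figure D3:**
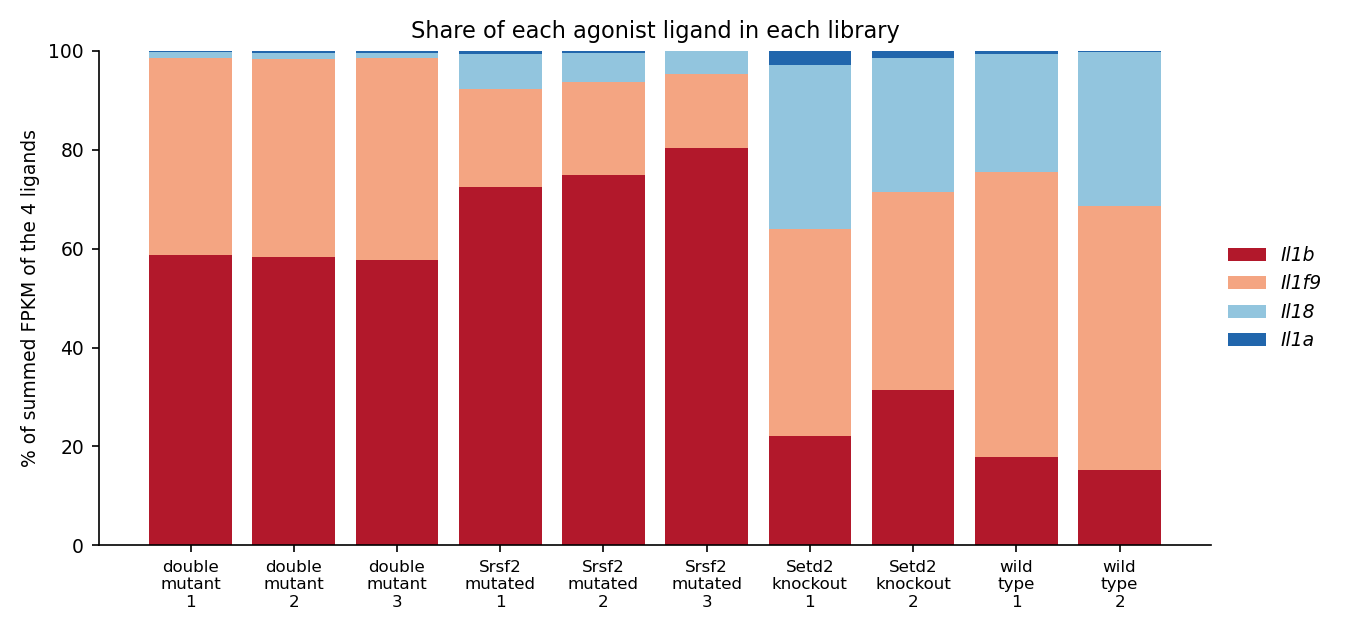
Share (%) of each of the 4 agonist ligand genes in their summed FPKM, with 1 stacked bar per library from double mutant to wild type. Il1b makes up 57.6% to 58.8% of the double mutant bars, 72.5% to 80.3% of the Srsf2 mutated bars and 15.3% to 17.8% of the wild type bars.

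Agonist and antagonist were set against each other as the ratio of Il1b to Il1rn FPKM. It was 23.3 to 27.0 in double mutant and 19.8 to 21.4 in Srsf2 mutated libraries, 6.90 and 7.46 in labelled Setd2 knockout, and 1.06 and 1.66 in wild type libraries. The antagonist rose in double mutant, but Il1b rose with it, so the ratio differed from that of Srsf2 mutated by 0.25 on the log2 scale. In labelled Setd2 knockout the ratio lay above that of wild type, with Il1rn lower and no difference of Il1b that passed the test. The ratio of decoy to signaling receptor, Il1r2 to Il1r1, was 133 to 142.5 in double mutant and 17.8 to 26.6 in Srsf2 mutated, against 1.46 and 1.54 in labelled Setd2 knockout and 2.77 and 3.16 in wild type. The groups did not overlap in either ratio. An exact two-sided permutation test over libraries cannot reach 0.05 here: the smallest p is 0.1 for 3 against 3 libraries, 0.2 for 3 against 2 and 0.333 for 2 against 2.

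**Figure D4:**
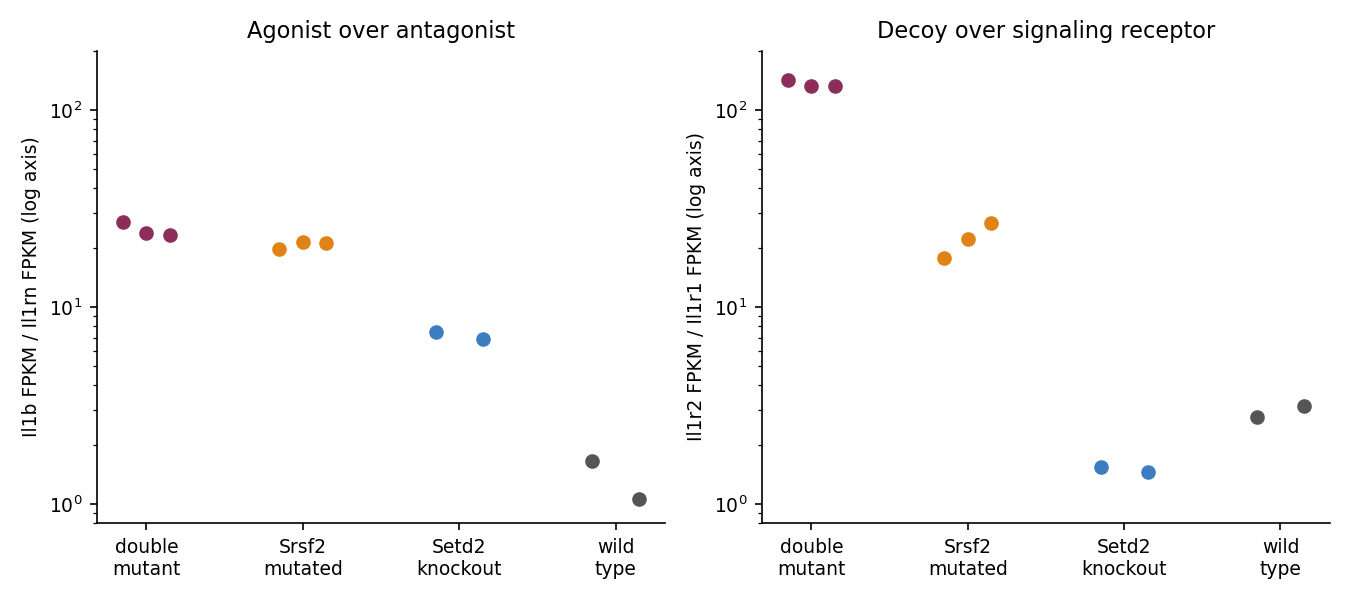
Ratio of Il1b to Il1rn (left) and of Il1r2 to Il1r1 (right) in FPKM, on log axes; each point is a library. Both ratios are highest in double mutant, at 23.3 to 27.0 and 133 to 142.5, and neither overlaps between groups.

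Il1b, Il1f9, Il1rn and Il1r2 are known neutrophil and monocyte genes, and markers of late neutrophils moved too. All 12 of 12 late neutrophil markers (S100a8, S100a9, Ltf and others) were higher in double mutant than in Srsf2 mutated, all 12 were lower in labelled Setd2 knockout than in wild type, and 12 of 12 had a positive interaction. Their summed level was 33980 to 34730 CPM in double mutant, 14860 to 18290 in Srsf2 mutated, 6162 to 6705 in labelled Setd2 knockout and 17260 to 24110 in wild type libraries, and none was at 0. Between Srsf2 mutated and wild type, 4 of the 12 were higher and 6 lower, beside 28.5% and 27.8% of all genes. Of all genes, 17.8% were higher and 15.9% lower in double mutant against Srsf2 mutated. In labelled Setd2 knockout against wild type 18.7% were higher and 19.9% lower, and 16.7% had a positive and 15.2% a negative interaction. Monocyte and macrophage markers summed to 1810 to 1925, 1352 to 1477, 1580 to 1721 and 1862 to 1880 CPM in the same order, with 8 of 12 higher and 0 lower in double mutant against Srsf2 mutated. In that comparison eosinophil (7 of 9) and erythroid markers (10 of 10) were higher, while early neutrophil (7 of 7), B lymphoid (8 of 9), stem and progenitor (7 of 10) and mast cell and basophil markers (7 of 10, with 3 higher) were lower. B lymphoid markers were higher in Srsf2 mutated than in wild type for 9 of 9, and summed to 280.2 to 296.2 CPM in double mutant, 1028 to 1086 in Srsf2 mutated, 90.56 to 90.63 in labelled Setd2 knockout and 108 to 124.5 in wild type. The erythroid markers summed to 12230 to 12930 CPM in double mutant, 3490 to 4264 in Srsf2 mutated, 1384 to 1432 in labelled Setd2 knockout and 529 to 607.4 in wild type. Immediate early and heat shock genes, which respond to handling as well as to cytokines, were higher in Srsf2 mutated than in wild type for 14 of 18 and lower for 2. They summed to 11550 to 11580 CPM in double mutant, 12850 to 13470 in Srsf2 mutated, 6136 to 6160 in labelled Setd2 knockout and 5722 to 7878 in wild type.

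Set against the late neutrophil sum, the 4 genes were higher in every double mutant library than in any other library. The order of labelled Setd2 knockout and wild type was not kept for Il1f9 and Il1r2. Per 1000 CPM of these markers, Il1b had 6.10 to 6.18 CPM in double mutant, 2.85 to 3.06 in Srsf2 mutated, 0.316 to 0.338 in labelled Setd2 knockout and 0.0683 to 0.125 in wild type. Il1f9 had 3.59 to 3.74, 0.465 to 0.701, 0.372 to 0.515 and 0.206 to 0.350 CPM in the same order, so Srsf2 mutated overlapped labelled Setd2 knockout, which lay above wild type on this scale. Il1r2 had 5.60 to 5.97 in double mutant and 1.698 to 2.199 in Srsf2 mutated, but its values of 0.694 to 0.768 in labelled Setd2 knockout and 0.542 to 0.778 in wild type overlapped. Il1rn had 0.662 to 0.760 and 0.392 to 0.436 in double mutant and Srsf2 mutated, and 0.123 to 0.142 against 0.187 to 0.219 in labelled Setd2 knockout and wild type. Against the monocyte and macrophage sum the order was kept: Il1f9 had 1.58 to 1.85 CPM per 1000 in labelled Setd2 knockout and 2.67 to 3.22 in wild type, and Il1r2 had 2.75 to 2.95 and 7.02 to 7.14. Against the early neutrophil sum Il1r2 had 0.304 to 0.334 and 0.494 to 0.514 in the same groups, while Il1f9 overlapped at 0.163 to 0.224 and 0.188 to 0.231. The 4 genes were highest in double mutant libraries against each of the 3 sums. The early neutrophil sum was itself lowest in double mutant, at 7151 to 7315 CPM, against 9121 to 10700 in Srsf2 mutated libraries. Genes already highest in double mutant had to stay so against it. The monocyte and macrophage sum was 1810 to 1925 CPM in double mutant and 1862 to 1880 in wild type, so it could shift that comparison little. The late neutrophil sum hides large differences between its markers. In double mutant, Retnlg was 63.65-fold wild type, Mmp8 30.33-fold, Mmp9 11.01-fold and Cxcr2 8.03-fold. Of the 12 markers, 10 were higher and 1 lower there, with a median log2 fold change of 0.63. Of all genes, 33.5% were higher and 29.5% lower there, with a median of 0.13. In the same comparison Il1b was 110.6-fold wild type, Il1f9 22.9-fold, Il1r2 14.9-fold and Il1rn 5.99-fold. The part of cell mixture and of handling in the IL-1 family's differences was not tested.

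Of 13 other IL-1 family genes in the tables, 8 were tested. In double mutant against Srsf2 mutated, 2 were higher, 2 lower and 4 did not pass, near the 17.8% and 15.9% of all genes. Il1rl1, the IL-33 receptor of mast cells and type 2 lymphocytes, had 33.9 ± 2.77 CPM in double mutant and 16.6 ± 0.217 in Srsf2 mutated (1.03 ± 0.082, adjusted p = 6.42e-08). Mast cell and basophil markers summed to 847 to 857.1 CPM in double mutant and 1266 to 1462 in Srsf2 mutated, but they did not move as one. Of the 10 markers, 3 were higher and 7 lower in double mutant. The mast cell genes Cma1 and Tpsb2 were under 1 CPM in every Srsf2 mutated library, which did not hold for double mutant. Of 6 tested markers of innate lymphoid type 2 cells, the 1 higher in double mutant was Il1rl1 itself. Of the others 1 was lower and 4 did not pass. Il18bp, which neutralises IL-18, had 14.95 ± 1.84 and 7.62 ± 1.26 CPM (0.97 ± 0.145, 6.44e-05). Sigirr, an inhibitory receptor of the family, was lower at 20.5 ± 1.43 against 29.3 ± 2.66 CPM (-0.52 ± 0.0869, 0.000204), as was Il18r1, the IL-18 receptor, at 17.2 ± 1.24 against 24.3 ± 3.75 CPM (-0.49 ± 0.12, 0.00423). Il1rl2, the receptor of IL-36 gamma, did not follow its ligand: it had 9.28 ± 1.38 CPM in double mutant and 10.9 ± 1.57 in Srsf2 mutated (-0.24 ± 0.128, 0.169).

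In Srsf2 mutated against wild type, 4 of the 8 were higher and 3 lower, beside 28.5% and 27.8% of all genes. Both IL-18 receptor chains were higher, Il18r1 at 24.3 ± 3.75 against 5.22 ± 0.399 CPM (2.22 ± 0.151, adjusted p = 5.86e-09) and Il18rap at 85.8 ± 11.1 against 48.1 ± 2.52 CPM (0.84 ± 0.0994, 3.16e-06), while Il18 itself did not pass. Il18bp (0.63) and the scarce Il33, with 15 to 26 counts per Srsf2 mutated library and 0 to 1 per wild type library, were also higher. Il1rl2 was lower, at 10.9 ± 1.57 against 21.9 ± 0.751 CPM (-1.01 ± 0.136, 1.24e-05), with smaller falls of Il1rl1 (-0.44) and Sigirr (-0.27). Without wild type replicate 2 the count became 2 higher and 2 lower. In labelled Setd2 knockout against wild type, 18.7% of all genes were higher and 19.9% lower. Of the 8, Il1rl1 was higher, at 52.7 ± 0.396 against 22.6 ± 1.33 CPM (2.33-fold, 1.65e-07), and Il18r1 (-0.5), Il18rap (-0.83) and Il1rl2 (-0.56) were lower. Leaving out either Setd2 knockout library reduced this to 1 higher and 1 lower.

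Il1r2, Il1r1, Il1rl2, Il1rl1, Il18r1 and Il18rap lie next to each other on chromosome 1, between 40074079 and 40551705. Their changes were not shared along the cluster. In double mutant against Srsf2 mutated, Il1r2 rose by 2.62 and Il1rl1 by 1.03, Il18r1 fell by 0.49, and Il1r1, Il1rl2 and Il18rap did not pass. In Srsf2 mutated against wild type, Il1r2 and its neighbour Il1r1 moved in opposite directions (1.27 and -1.59). On chromosome 2, Il1f9 and Il1rn lie in one ligand cluster, and Il1f5, Il1f6 and Il1f10 between them had 0 counts in every library.

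**Figure D5:**
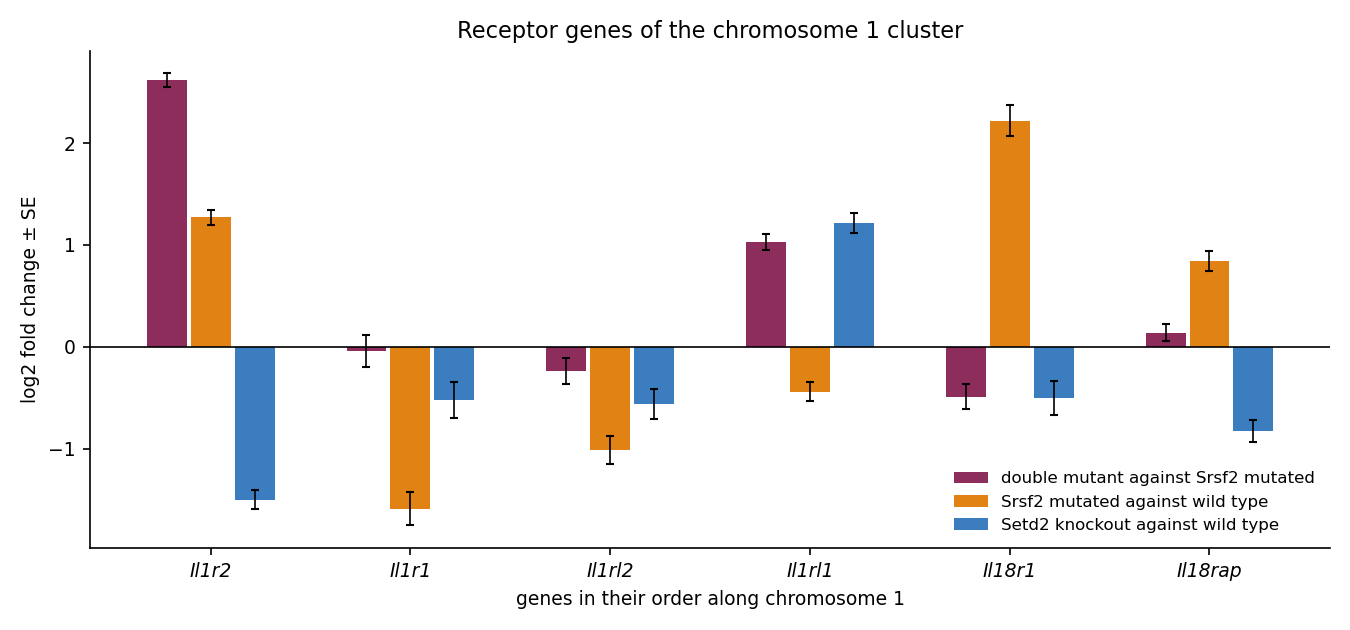
log2 fold change ± SE of the 6 receptor genes in their order along chromosome 1, for 3 comparisons. Some neighbouring genes differ in sign, as Il1r2 (1.27) and Il1r1 (-1.59) do in Srsf2 mutated against wild type. Others share it, as Il18r1 (2.22) and Il18rap (0.84) do in the same comparison.

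Of 24 tested IL-1 receptor signaling genes, double mutant had 8 higher and 2 lower relative to Srsf2 mutated (median 0.11, beside 0.00 over all genes, of which 17.8% were higher and 15.9% lower). The kinase Irak2 had 39.7 ± 1.53 CPM in double mutant and 18.7 ± 1.3 in Srsf2 mutated (1.08 ± 0.0843, adjusted p = 4.9e-08), and the adaptor Myd88 82.4 ± 1.89 and 62.8 ± 1.78 (0.39 ± 0.0664, 0.000223). Tab3, which links the receptor complex to the kinase TAK1, rose by 0.85 and the ubiquitin ligase Peli2 by 0.65. In Srsf2 mutated against wild type the list was split, with 10 higher and 7 lower (median -0.02, beside 0.08 over all genes, of which 28.5% were higher and 27.8% lower). Map3k8, a kinase of the ERK branch, stood out at 47.3 ± 1.41 against 4.68 ± 0.0671 CPM (3.34 ± 0.0997, 3.4e-13). Mapk8 rose by 0.89, while Peli2 (-1.23) and Irak3 (-0.69), an inhibitor of the pathway, were lower.

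Of 19 genes of IL-1 and IL-18 processing and release, double mutant had 5 higher and 4 lower relative to Srsf2 mutated (median 0.05; 17.8% and 15.9% of all genes). For Srsf2 mutated against wild type there were 6 higher and 9 lower (median -0.19; 28.5% and 27.8% of all genes). Nlrp3, the inflammasome sensor, had 230 ± 23 CPM in Srsf2 mutated and 4.56 ± 0.133 in wild type (5.65 ± 0.109, adjusted p = 3.52e-15), but differed by -0.08 between double mutant (217 ± 4.01) and Srsf2 mutated (0.408). Il1b therefore rose further in double mutant without a change of Nlrp3 that passed the test. The caspase Casp4 rose with the Srsf2 mutation (1.31). The primary granule proteases Prtn3 (-1.41) and Elane (-1.56) fell in the same comparison. They and Ctsg are also early neutrophil markers, of which 7 of 7 fell there (median -1.47) and 7 of 7 in double mutant against Srsf2 mutated (median -0.45), and the part of these cells was not tested. In double mutant against Srsf2 mutated, Prtn3 (-0.59) and Ctsg (-0.45) fell further and the protease gene Capn1 (0.57) and the gasdermin gene Gsdme (0.55) rose.

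Of 27 genes known to be inducible by IL-1, 20 were higher and 4 lower in Srsf2 mutated than in wild type (median 3.01, beside 0.08 over all genes, of which 28.5% were higher and 27.8% lower), and many of them respond to other inflammatory signals as well. Among the higher genes was Socs3, a feedback inhibitor of cytokine signaling, at 532 ± 22.8 against 6.87 ± 0.966 CPM (6.28 ± 0.111, adjusted p = 2.57e-15). Another was Nfkbiz, an NF-kB cofactor, at 530 ± 29.5 against 16.3 ± 4.58 CPM (5.02 ± 0.148, 3.04e-13). Zc3h12a, an RNase that limits cytokine transcripts, rose by 3.01. The granule gene Lcn2 was among the 4 lower genes (-0.28, adjusted p = 0.0289). In double mutant against Srsf2 mutated the list was mixed, with 11 higher and 5 lower (median 0.18; 17.8% and 15.9% of all genes), or 6 higher and 4 lower without Srsf2 mutated replicate 1. The chemokine genes Ccl2 (46.1 ± 0.565 against 11.7 ± 1.63 CPM, 1.98 ± 0.117, 2.01e-09) and Cxcl2 (2.11 ± 0.188, 2.38e-07) and the granule gene Lcn2 (1.11 ± 0.0945, 1.42e-07) rose beside Il1b. Il6 went the other way, at 38.2 ± 0.506 CPM in double mutant against 102 ± 10.6 in Srsf2 mutated (-1.42 ± 0.0904, 4.57e-09). Both groups lay above wild type, where Il6 had 6 and 13 counts. Its difference from wild type was 8.82 ± 0.19 in Srsf2 mutated (adjusted p = 8.53e-15) and 7.4 ± 0.192 in double mutant (3.54e-14).

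Genes whose log2 CPM was most like that of a family member over the 10 libraries were named as a description; the 4 genotypes set most of this likeness, and the points share library and depth. The closest to Il1b were Bpgm, an enzyme of red cells (Pearson r = 0.9991), the receptor gene Hcar2 (0.999) and Cd300ld (0.9986). For Il1r2 they were Cxcr2, a chemokine receptor of neutrophils (0.9974), Txnip (0.9971) and Rnf11 (0.9968), and for Il1f9 the death receptor Fas (0.9977), Xpo7 (0.9972) and Irak2 (0.9935). Il1rn was closest to Slfn2 (0.9979), the complement receptor C5ar1 (0.9972) and Camk1 (0.9961). Il1r1 was closest to Pptc7 (0.9959), Med17 (0.992) and Tm9sf4 (0.9918), and Il1rap to Laptm5 (0.9466), Slc7a5 (0.9336) and Dram1 (0.9331). Il18 had no closer gene than Bank1 (0.8907), and Il1a none closer than Abca9 (0.9819).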

How the data were processed

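Per the file headers, each of the 3 deposited tables gives whole-number read counts per gene and library, and the counts were the values tested. The authors' FPKM in the same tables equalled the count divided by gene length and library total (largest relative difference 1.39e-06) and was used to compare genes. The deposited log2 fold changes, p-values and significance labels are the authors' own comparisons. The deposited mean normalised count is treated as a score given by the authors and was only set beside the raw counts. The submitters' processing notes list HISAT2 2.0.5, STAR 2.6.1a, HTSeq 0.9.1, featureCounts 2.0.1 and DESeq2 1.22.2, with no role or order, and the builds GRCm38 and mm10 beside human ones. Positions are from GENCODE M21 on GRCm38, and promoters from RefSeq (GRCm38.p6; all 8 genes matched).

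Counts of the 5 libraries found in more than 1 table were identical. Tables were merged by Ensembl identifier, and 27 symbols turned into dates were restored. In edgeR 4.0.16 (R 4.3.3), filterByExpr left 19289 genes, counts were scaled by TMM, and 1 quasi-likelihood model over all 10 libraries, with a term per genotype, gave 6 pairwise contrasts and the interaction. Calls use a Benjamini-Hochberg adjusted p, taken over every tested gene, of 0.05. The script was tested on simulated data in which few genes changed. That test does not cover comparisons in which as many genes are called as here. CPM uses TMM-scaled totals, and SE is on the log2 scale. Floors are 3 counts per library. They hold for counting error alone: without molecular identifiers, reads are not independent molecules. Alternatives were other scalings, filters and fits, DESeq2 1.42.0, a replicate block and each library left out.

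Named were the 8 genes, the tested genes of the family, the 4 genes of smallest adjusted p per list in double mutant against Srsf2 mutated and in Srsf2 mutated against wild type, the 3 most correlated genes per member (log2 CPM, prior count 2; at least 4 CPM in a group; predicted models left out), Setd2, Srsf2 and Xist as checks, and markers. Srsf2 stood at 223 ± 4.03 CPM in double mutant, 231 ± 12 in Srsf2 mutated, 323 ± 2.22 in labelled Setd2 knockout and 263 ± 26.7 in wild type libraries. The genes and lists were chosen with earlier results of these data known. The 3 single-cell samples were not analysed here.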

Additional observations from a re-analysis of the deposited data

Results flagged for a closer look

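Each of the following genes was singled out because its difference between groups set apart by the Setd2 knockout label was not the same with and without the Srsf2 mutation, by the interaction test of edgeR. The level of Setd2 goes against the label in the libraries labelled Setd2 knockout. The values are double mutant minus Srsf2 mutated, less labelled Setd2 knockout minus wild type, on the log2 scale. They take in wild type, the group with high Xist, so sex of the mice cannot be told apart from genotype in them. Il1f9 had 4.61, from 3.65 and -0.96. Il1rn had 4.14, from 1.86 and -2.28, and Il1r2 had 4.12, from 2.62 and -1.5. In these 3 genes every double mutant library lay above every Srsf2 mutated library, and both labelled Setd2 knockout libraries lay below both wild type libraries. Il1b had 1.96, from 2.11 and 0.14. Il1rap had 0.57, from 0.04 and -0.53, of which the first did not pass the test. All 12 late neutrophil markers also had a positive interaction, with a median of 2.71, beside 16.7% of all genes and a median of -0.07. The part of these markers in the values above was not tested.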

How the results depend on the processing

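Over 17 other settings, 943 values of the 8 genes in 7 contrasts were recomputed, of which 915 kept their direction and their side of the threshold. All values of Il1f9, Il1rn and Il1r2 did so. A call was lost in 16 and gained in 4, in Il1a, Il18, Il1r1 and Il1rap. The sign turned in 8, none of which had been called: Il1b in labelled Setd2 knockout against wild type (-0.04 to 0.35 over libraries left out, lowest without wild type replicate 2), Il1rap (-0.01, upper-quartile scaling) and Il1r1 (-0.18 to 0.08 over libraries left out) in double mutant against Srsf2 mutated, Il1a in Srsf2 mutated against labelled Setd2 knockout (-0.11 to 1.23 over libraries left out), and the Il1a interaction (-0.55 to 1.09 over libraries left out). The cause was not tested. Il1a had no value where only the 2 groups of the Setd2 knockout contrast were fitted. Over all genes, labelled Setd2 knockout against wild type gave 4792 to 8803 calls with a library left out, lowest without Setd2 knockout replicate 1, against 7449 with all. Upper-quartile scaling moved the median of all genes in the interaction from -0.07 to -0.21. It moved the share of calls that were higher from 52.4% to 37.6% there, and from 48.4% to 59.5% in labelled Setd2 knockout against wild type. Deviations from the group mean had correlations of -0.028 to 0.04 over 13 pairs of libraries with the same replicate number. Over 24 pairs with other numbers they were -0.057 to 0.057. In groups of 2 libraries the deviations mirror each other, so this check cannot decide whether the numbers mark shared handling. With the replicate block, 5 of the 8 genes were called in labelled Setd2 knockout against wild type, 6 in Srsf2 mutated against wild type, 5 in double mutant against Srsf2 mutated and 5 in the interaction, as without it. Depth limits Il1a (0 to 76 counts) and Il18 (50 to 115).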

Other observations

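The authors' deposited table lists Il1f9 as NoChange both in labelled Setd2 knockout against wild type, with a log2 fold change of -0.96 and an adjusted p of 1.39e-07, and in Srsf2 mutated against wild type (0.89, adjusted p = 1.04e-09). Among the 8 genes, every deposited log2 fold change under 1 in size was listed as NoChange, whatever its adjusted p. Those above 1 in size with an adjusted p under 0.05 were listed as UP or DOWN. For double mutant against Srsf2 mutated, the authors' deposited table gives Il1f9 3.58 with an SE of 0.461, where the fit described above gave 3.65 with an SE of 0.114. The mean normalised count beside that value in the authors' deposited table is 1916, while the raw counts of the 6 libraries in the table average 2850. For Il1b the authors' deposited table gives 1584 where the raw counts average 5461, so the 2 scales do not differ by 1 factor; which libraries entered the deposited fit is not given in the sources used here.

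Some scarce family genes were listed with 0 counts in one library of a genotype and over 10 in another. Il1f8, the gene of IL-36 beta, had 14, 1 and 0 counts in the double mutant libraries and 0, 0 and 11 in the Srsf2 mutated libraries, with 0 in all labelled Setd2 knockout and wild type libraries. Il33 had 0, 0 and 14 counts in the double mutant libraries and 20, 15 and 26 in the Srsf2 mutated libraries. Il1rapl1 had 0 counts in every library.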
